A study of Homo sapiens with 2 samples.

Results

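The genes described here are 32 genes of cholesterol and fatty acid synthesis, chosen by symbol from a table of 29452 rows: 18 enzymes of the sterol pathway, 8 enzymes of fatty acid synthesis, desaturation and elongation, 5 regulators of the SREBP transcription factors, and the sterol transfer protein STARD4. All 32 symbols were found, once each, and all passed the level filter of at least 1 RPKM (assigned reads scaled by exon length and library total) in the higher library. RNA sequencing was done on MDA-MB-231, an established triple-negative human breast cancer cell line, with a short hairpin RNA against CDK14, a cyclin-dependent kinase (CDK14-sh), and with a scramble control. Each group held 1 library, so no difference has a replicate check and no gene was tested. The labels name neither the hairpin sequence nor the vector, and no second hairpin was used here.

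Cells make cholesterol from acetyl-CoA through mevalonate, farnesyl diphosphate, squalene and lanosterol, and fatty acids from acetyl-CoA through malonyl-CoA. Transcription of both sets of enzymes is driven by the SREBP factors, which are made as membrane proteins of the endoplasmic reticulum. SCAP escorts them to the Golgi for cleavage, and the INSIG proteins hold SCAP back when sterols are plentiful. INSIG1 is itself an SREBP target, while INSIG2 is known as less dependent on SREBP.

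The libraries held 15478156 (CDK14-sh) and 17217564 (scramble) assigned reads, and the members had between 31 and 3390 reads in a library. CDK14 stood in the library labelled CDK14-sh at 0.548 RPKM (58 reads), against 2.48 RPKM (292 reads) in the control. Of the listed markers of MDA-MB-231 cells, all 7 were measured, with VIM (vimentin) at 146 and 249 RPKM and CD44 at 92.2 and 79.7 RPKM in CDK14-sh and control. Of 9 luminal epithelium markers, ESR1, PGR and CDH1 had at most 8 reads in either library and 6 were measured, among them KRT8 (27.7 and 48.6 RPKM) and KRT19 (30.4 and 55.3 RPKM), which were 1.76-fold and 1.82-fold lower in CDK14-sh. Of the leukocyte markers, PTPRC had 3 reads in each library and CD68, a lysosomal glycoprotein, was at 126 and 128 RPKM. No adipocyte marker passed the filter. The fibroblast, endothelium and hepatocyte lists each had 1 measured marker. These were COL1A1 (1.99 and 1.65 RPKM), KDR (1.42 and 1.42 RPKM) and SERPINA1 (1.62 and 1.30 RPKM). The summed RPKM of the 7 line markers was 751 and 709, and that of the luminal markers 83.5 and 134. The part of these differences in the results below was not tested. The share of reads in mitochondrially encoded rows was 17.1% for the knockdown and 14.5% for the scramble. In what follows, intervals in parentheses are 95% Clopper-Pearson intervals of the plain RPKM ratio. They cover counting error only, not the spread between cultures. Log2 ratios are of CDK14-sh over scramble with 0.1 RPKM added to each level.

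The 2 INSIG genes and SC5D, which encodes the desaturase before the last reduction of cholesterol synthesis, were the 3 members at least 2-fold lower in CDK14-sh, and no member was at least 2-fold higher. Most of the enzymes that SREBP drives lay close to the control. In RNA from a whole culture, fewer cells expressing a gene and less RNA per cell cannot be told apart. Of all 14878 rows past the level filter, 3.47% were at least 2-fold lower and 3.21% at least 2-fold higher. Among the 10372 protein-coding rows that also reached 30 reads in at least 1 library, a set that holds all 32 members, the shares were 2.14% lower and 0.974% higher. At 1.5-fold, 4 members were lower, FDFT1 being added, and 2 were higher, SCD and TM7SF2, beside 7.55% and 5.6% of those protein-coding rows.

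Each of the 3 members past 2-fold carries, in its 3' untranslated region (UTR), at least 1 of 4 short words. No word is common to all 3: INSIG1 and SC5D hold ATCCATA, and INSIG2 holds GTCATGC. The set is GTCATGC with the overlapping word TCATGCA, and ATCCATA with the overlapping word TCCATAA. These 7-base words were picked in an earlier analysis from the ratios of these same libraries, so their presence in lower genes supports nothing independently. The matches in members are printed 5' to 3' in the sense of the transcript, with the word in capitals, to show which member holds which word. Sequences come from GENCODE v29 transcripts (GRCh38), taking for each gene that basic transcript whose 3' UTR is longest.
INSIG1: tttatttcgaaATCCATAgtcatctaaga
INSIG2: atattgttcctGTCATGCagagtataaga
SC5D: gaaaaaataatATCCATAcagtcaagata
FADS1: ggtcttttagcTCCATAAgcaagtgagca

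The INSIG1 site lies at chr7:155309008-155309036, with the word at base 749 of a 3' UTR of 1965 bases. The INSIG2 site lies at chr2:118108661-118108689, with the word at base 350 of 1706, and TCATGCA overlaps it from the next base. In SC5D the site is at chr11:121307582-121307610, with the word at base 81 of 1182. All 3 genes are on the plus strand. FADS1, on the minus strand, holds its word at chr11:61801362-61801390, base 1032 of 2786, and differed little between the libraries.

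Of the 29 members within 2-fold, FADS1 alone carried a word (3.45%), and the 3 lower members all did. Over the 32 members the share was 12.5%, and over 10326 other protein-coding rows past the level filter it was 25.1%. The share differed with 3' UTR length. Among other rows whose 3' UTR was between 0.8 and 1.25 times as long, 27.7% carried a word at the length of INSIG1, 23.9% at that of INSIG2 and 16.9% at that of SC5D. ELOVL6 (5492 bases), SCD (3901) and STARD4 (3853) have the longest 3' UTRs of the members and carry none of the words. A match is a description of the letters, and whether any of these sites is bound was not tested.

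The promoter of INSIG2 differed from those of INSIG1 and SC5D in the E-box and the CCAAT box. RefSeq promoter windows (GRCh38.p14, 250 bases before to 50 after the start) were matched for 28 of the 32 members. Those of INSIG1 (chr7:155297628-155297927), INSIG2 (chr2:118088221-118088520) and SC5D (chr11:121292521-121292820), all on the plus strand, are printed because the 3 genes moved the same way. For INSIG2 and SC5D the first of 2 listed starts is shown. Capitals mark the E-box CACGTG and the CCAAT box, the latter on either strand (ATTGG when reversed).
INSIG1: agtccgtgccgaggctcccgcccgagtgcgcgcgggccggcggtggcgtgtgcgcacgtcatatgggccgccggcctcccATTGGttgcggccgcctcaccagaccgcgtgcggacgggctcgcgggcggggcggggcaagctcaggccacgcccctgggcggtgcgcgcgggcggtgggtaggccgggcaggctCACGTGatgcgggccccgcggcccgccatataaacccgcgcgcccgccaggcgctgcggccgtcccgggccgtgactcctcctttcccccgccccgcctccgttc
INSIG2: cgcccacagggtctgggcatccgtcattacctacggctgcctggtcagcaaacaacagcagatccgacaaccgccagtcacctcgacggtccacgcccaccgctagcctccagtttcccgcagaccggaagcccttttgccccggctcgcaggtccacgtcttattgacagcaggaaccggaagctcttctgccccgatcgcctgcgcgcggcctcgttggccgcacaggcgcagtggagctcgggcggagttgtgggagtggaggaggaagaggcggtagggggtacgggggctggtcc
SC5D: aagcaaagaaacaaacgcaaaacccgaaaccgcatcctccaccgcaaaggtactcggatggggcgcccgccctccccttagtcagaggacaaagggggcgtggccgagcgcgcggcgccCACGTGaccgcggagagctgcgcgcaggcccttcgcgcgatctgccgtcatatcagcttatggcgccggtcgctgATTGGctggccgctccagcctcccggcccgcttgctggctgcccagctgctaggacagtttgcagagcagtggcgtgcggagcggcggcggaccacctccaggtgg

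INSIG1 and SC5D each hold 1 E-box and 1 CCAAT box, and neither motif is in the INSIG2 window. All 3 hold the GC box, 6 times in INSIG1 and 1 time each in INSIG2 and SC5D. The E-box, an element that SREBP and other helix-loop-helix factors can bind, was in the windows of 4 of 28 members (14.3%): INSIG1, SC5D, LSS and SCAP. It was in those of 8.78% of all 27305 genes with a promoter window. The CCAAT box, bound by NF-Y, which is known to act beside SREBP, was in those of 21 members (75.0%) and of 39.7% of all genes. The GC box GGGCGG was in 27 members (96.4%) and 48.3% of all genes. A sterol response element written as TCACNCCAC was found in SREBF2 alone (3.57%, against 1.39% of all genes). All motifs were searched on both strands, and these shares describe the windows and not the use of any site. The genes compared were not limited by type or level, while the members are protein-coding and past the level filter. The shares are therefore not those of like genes, and a difference between them is not shown to be particular to the pathway.

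Among the regulators, the genes of both retention proteins were lower in CDK14-sh. INSIG1, on chromosome 7 from 155297776 to 155310235, was at 3.59 RPKM (203 reads) in CDK14-sh and 10.6 RPKM (668 reads) in the control, which is 2.96-fold lower (2.52 to 3.48). INSIG2, on chromosome 2 from 118088452 to 118110997, was at 4.81 RPKM (294 reads) and 12.7 RPKM (861 reads), 2.63-fold lower (2.30 to 3.02). Both paralogs were lower by a similar factor, and their intervals overlap. INSIG1 made up 42.8% of the summed RPKM of the pair in CDK14-sh and 45.6% in the control. Neither row shares exon bases with another row. Of 10371 other protein-coding rows with at least 30 reads, 39 (0.376%) had a lower ratio than INSIG1 and 66 (0.636%) a lower ratio than INSIG2.

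The transcripts of SCAP and the SREBP factors, on whose proteins the INSIGs act, differed less. SCAP, the sterol-sensing escort of SREBP, was at 4.37 RPKM in CDK14-sh and 3.52 RPKM in the control, 1.24-fold higher (1.08 to 1.43). SREBF2, encoding the factor that mainly drives sterol genes, was at 4.68 and 4.05 RPKM, 1.15-fold higher (1.02 to 1.30). SREBF1, encoding the factor that mainly drives fatty acid genes, went the other way, at 2.39 and 2.92 RPKM, 1.22-fold lower (1.05 to 1.43). The regulators as a group had a median log2 ratio of -0.28 that describes no member but SREBF1, since 2 lay far below it and 2 above 0.

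**Figure D1:**
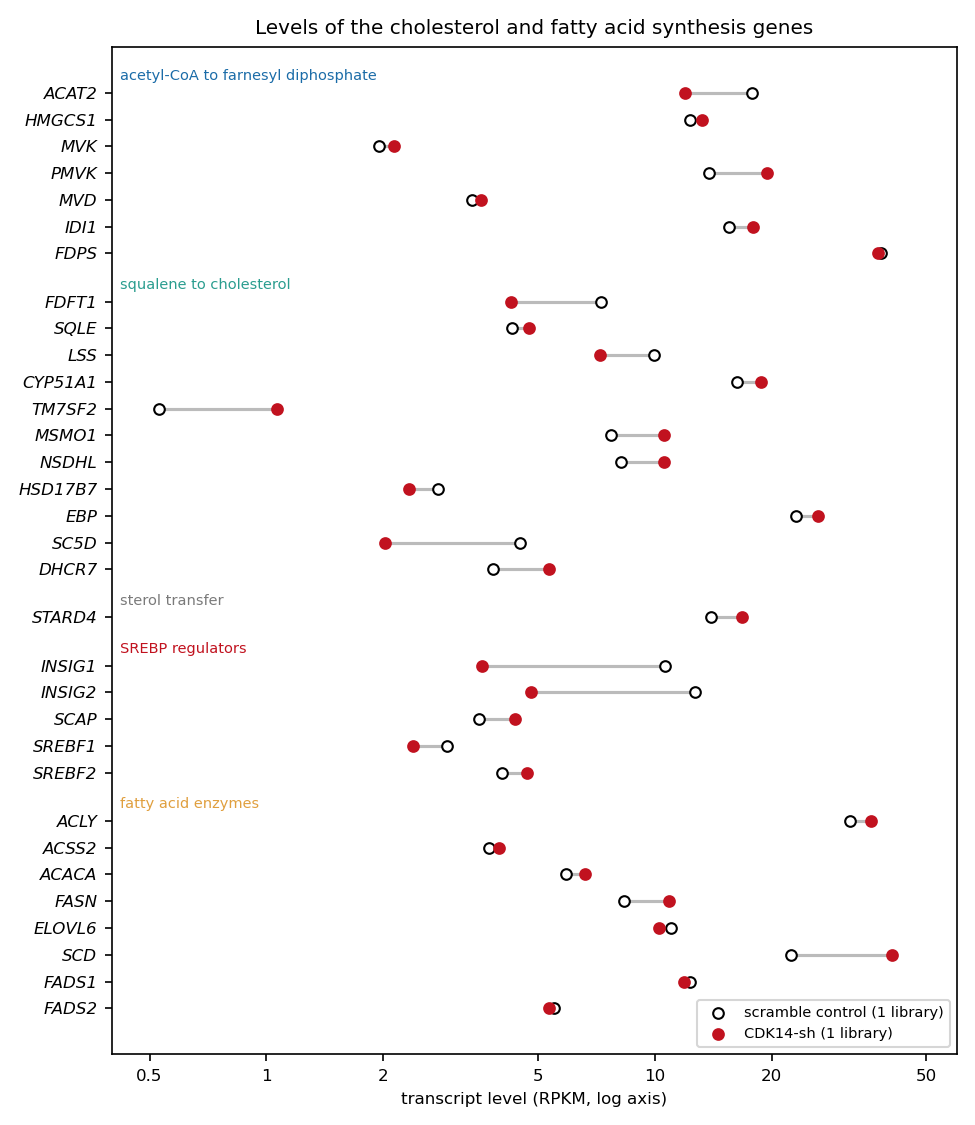
Level of each of the 32 genes in RPKM (log axis) in the scramble control (open circles) and in CDK14-sh (filled circles), 1 library each, in pathway order. The widest gaps are those of INSIG1 (10.6 to 3.59 RPKM), INSIG2 (12.7 to 4.81) and SC5D (4.50 to 2.02) downward and of TM7SF2 (0.528 to 1.06) and SCD (22.4 to 40.8) upward.

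The first steps, from acetyl-CoA to farnesyl diphosphate, held 7 genes with a median log2 ratio of 0.10, beside 0.04 over all 14878 rows. The next 3 genes act in turn on the way to mevalonate phosphates. HMGCS1, encoding the synthase of HMG-CoA, was at 13.2 RPKM in CDK14-sh and 12.3 RPKM in the control, 1.07-fold higher (0.981 to 1.17). MVK, encoding mevalonate kinase, was at 2.14 and 1.95 RPKM, and its interval also included no difference (0.904 to 1.33). PMVK, encoding the kinase of the following step, stood out among them at 19.5 and 13.8 RPKM, 1.41-fold higher (1.21 to 1.65).

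MVD, encoding the decarboxylase that yields isopentenyl diphosphate, was at 3.56 and 3.37 RPKM. IDI1, encoding the isomerase after it, was at 17.9 and 15.5 RPKM, 1.15-fold higher (1.05 to 1.26). FDPS, encoding farnesyl diphosphate synthase and the most abundant member in the control, was at 37.6 and 38.2 RPKM, within counting error of no difference. The lowest ratio of the segment was at its entry: ACAT2, encoding the cytosolic thiolase that joins acetyl-CoA units, was at 11.99 RPKM (798 reads) and 17.8 RPKM (1314 reads), 1.48-fold lower (1.35 to 1.62). The ACAT2 row shares 52.3% of its exon bases with other rows, mainly SOD2 and TCP1, so its reads cannot all be assigned to it.

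The second segment, from squalene to cholesterol, held 11 genes with a median log2 ratio of 0.19, and its members spread more widely, from -1.12 to 0.89. FDFT1, encoding squalene synthase, the step that commits farnesyl diphosphate to sterols, was at 4.27 RPKM (344 reads) in CDK14-sh and 7.26 RPKM (650 reads) in the control, 1.70-fold lower (1.49 to 1.94). SQLE, encoding the epoxidase that follows, was at 4.74 and 4.29 RPKM, within counting error of no difference. LSS, encoding lanosterol synthase, was at 7.24 and 9.98 RPKM, 1.38-fold lower (1.26 to 1.51). The enzymes on either side of SQLE were thus lower, and SQLE was not.

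The conversion of lanosterol begins with CYP51A1, the sterol demethylase, at 18.7 and 16.3 RPKM, 1.15-fold higher (1.06 to 1.25). The row of CYP51A1 shares 78.8% of its exon bases with LRRD1. TM7SF2, a sterol reductase of the next step, was the member with the lowest level in both libraries, at 1.06 RPKM (56 reads) and 0.528 RPKM (31 reads). Its plain ratio was 2.01-fold higher (1.27 to 3.22), a wide interval that reflects few reads, and with 0.1 RPKM added it did not reach 2-fold (log2 ratio 0.89).

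The enzymes that remove the methyl groups of lanosterol were slightly higher than the control or within counting error of it. MSMO1, a methylsterol oxidase, was at 10.6 and 7.71 RPKM, 1.37-fold higher (1.20 to 1.57). NSDHL, the dehydrogenase acting with it, was at 10.6 and 8.18 RPKM, 1.29-fold higher (1.10 to 1.52). HSD17B7, the ketoreductase that completes this cycle, was at 2.33 and 2.76 RPKM, with an interval that included no difference (0.951 to 1.47 in the lower direction).

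The last steps held the widest contrast between adjacent enzymes. EBP, the sterol isomerase, was at 26.3 and 23.0 RPKM, 1.14-fold higher (1.04 to 1.25). SC5D, which acts on its product, was at 2.02 RPKM (174 reads) and 4.50 RPKM (431 reads), 2.23-fold lower (1.86 to 2.67). DHCR7, the reductase that follows SC5D, was at 5.34 RPKM (344 reads) and 3.84 RPKM (275 reads), 1.39-fold higher (1.18 to 1.64). SC5D lies on chromosome 11 from 121292453 to 121308694, and its row shares no exon bases with another. SC5D had the lowest ratio of the 18 sterol enzymes, and its interval overlaps those of INSIG1 and INSIG2 above it and that of FDFT1 below it.

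STARD4, which carries sterol through the cytosol between membranes and is an SREBP target, was at 16.7 and 14.0 RPKM, 1.20-fold higher (1.11 to 1.29).

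**Figure D2:**
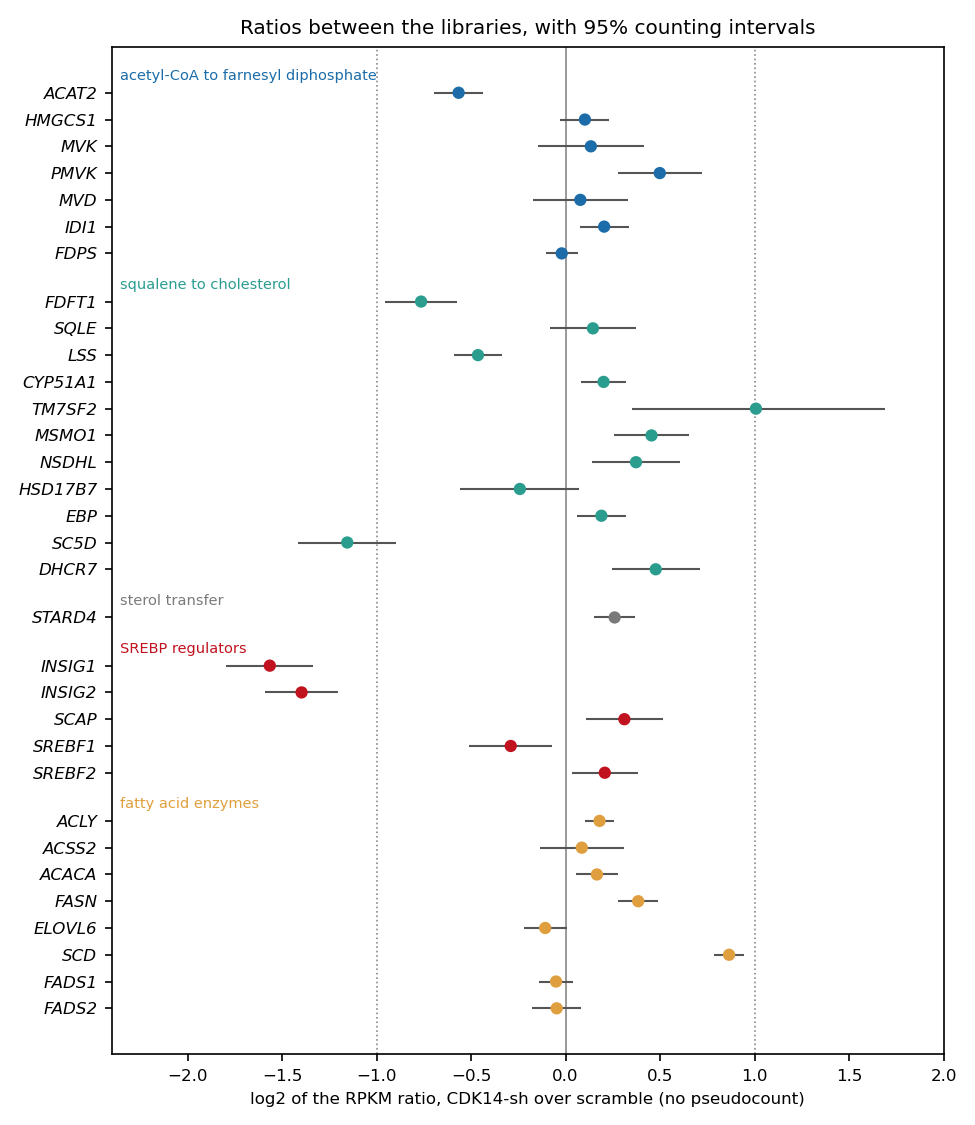
Plain log2 ratio of RPKM, CDK14-sh over scramble, for each of the 32 genes with its 95% Clopper-Pearson counting interval, in pathway order; dotted lines mark 2-fold. INSIG1, INSIG2 and SC5D lie left of the lower dotted line, with the interval of SC5D crossing it, SCD is the highest of the fatty acid enzymes, and TM7SF2, at 2.01-fold, lies on the upper dotted line with the widest interval.

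The 8 fatty acid enzymes had a median log2 ratio of 0.12, between -0.11 and 0.86. SCD, encoding the stearoyl-CoA desaturase that makes monounsaturated fatty acids, was at 40.8 RPKM (3390 reads) in CDK14-sh and 22.4 RPKM (2071 reads) in the control, 1.82-fold higher (1.72 to 1.92). That made SCD the most abundant member in CDK14-sh, where it had been the fourth in the control. FASN, the fatty acid synthase, was at 10.9 and 8.35 RPKM, 1.30-fold higher (1.21 to 1.40).

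The enzymes that supply FASN were close to the control. ACLY, which makes acetyl-CoA from citrate, was at 36.0 and 31.8 RPKM, 1.13-fold higher (1.08 to 1.19). ACACA, which makes malonyl-CoA, was at 6.62 and 5.90 RPKM, 1.12-fold higher (1.04 to 1.21). ACSS2, which makes acetyl-CoA from acetate, was at 3.97 and 3.74 RPKM, with an interval that included no difference (0.910 to 1.24).

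The enzymes after FASN other than SCD stood at the control level within counting error. ELOVL6, an elongase, was at 10.2 and 11.0 RPKM (0.996 to 1.17 in the lower direction). FADS1 was at 11.9 and 12.3 RPKM and FADS2 at 5.34 and 5.52 RPKM. These desaturases of polyunsaturated fatty acids have neighbouring rows that share exon bases with each other (4.79% of those of FADS1). Of these desaturases SCD stood higher, and the FADS pair lay at the control level.

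INSIG1 was set against the genes that SREBP drives. Over the 26 enzymes and STARD4 the median log2 ratio was 0.14, with 18 of 27 above 0, beside 8135 of 14878 rows in all. INSIG1 stood at -1.54, which is -1.68 from that median or a gap of 3.20-fold, and INSIG2 at -1.38, a gap of 2.87-fold. All 27 had a higher ratio than INSIG2 and INSIG1, SC5D being the nearest at -1.12. Summed over the 27 genes, reads came to 25897 with the hairpin and 26330 with the scramble, 1.09-fold higher per assigned read (1.08 to 1.11). In pooled reads that rise was not shared by the 18 sterol enzymes, whose reads (10933 and 12417) were together slightly lower per assigned read. Their median log2 ratio was 0.13 with 12 of 18 above 0, and their summed RPKM was 199 in CDK14-sh and 191 in the control. Among them is ACAT2 (798 and 1314 reads), whose row shares 52.3% of its exon bases with other rows. The 8 fatty acid enzymes (13492 and 12545 reads, of which SCD had 3390 and 2071) and STARD4 (1472 and 1368) were higher. The INSIG genes together had 497 and 1529 reads, 2.77-fold lower (2.50 to 3.07). The counting interval of INSIG1 overlaps that of SC5D and lies beyond those of the other 26.

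The small positive medians of the enzymes, and the pooled rise of the 27 genes, depend on the scale between the libraries. Conversion to TPM, in which RPKM sums to the same total in every library, moved the median of all rows by -0.15 log2. The median of the enzymes and STARD4 became -0.01, and those of the first segment and the fatty acid enzymes turned to -0.05 and -0.03. Relative to the median of all rows, the enzymes and STARD4 stood at 0.10 both with RPKM and with TPM, INSIG1 stood at -1.58 and -1.59, and SCD at 0.82 with each. With mitochondrial rows left out of the totals the distance of INSIG1 from the enzymes and STARD4 was -1.68, as with all rows. Both rescalings multiply all rows of a library by the same factor. Such distances could therefore change only through the added 0.1 RPKM and the level filter, and their agreement is no separate support.

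**Figure D3:**
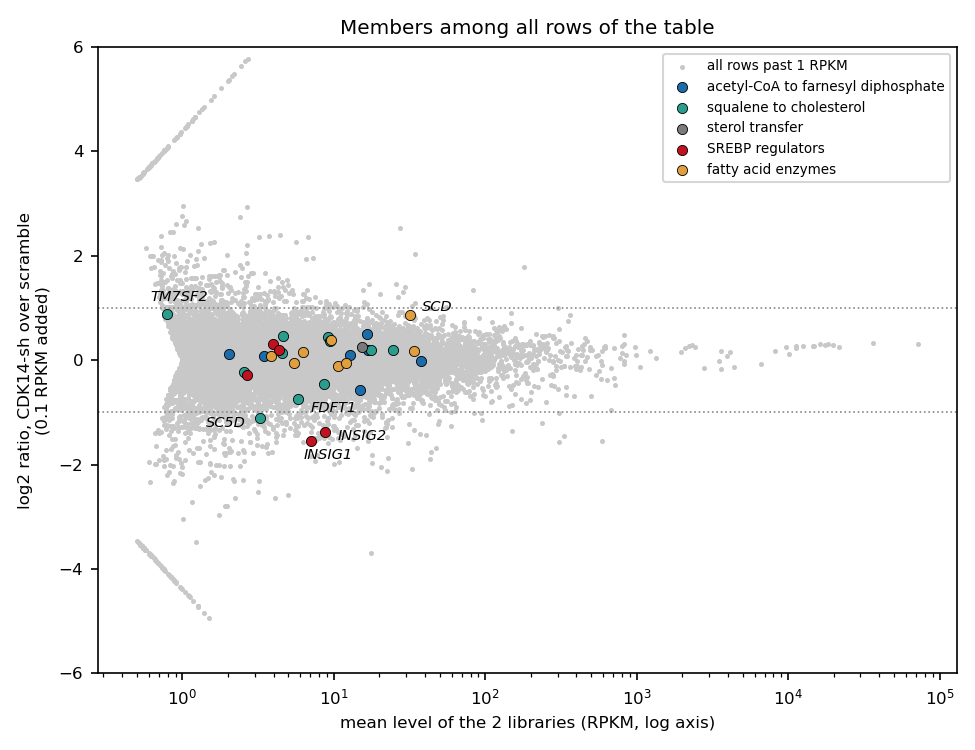
Log2 ratio with 0.1 RPKM added against the mean RPKM of the libraries (log axis) for 14878 rows past 1 RPKM (grey) and the 32 members (coloured by group); dotted lines mark 2-fold. INSIG1 (-1.54), INSIG2 (-1.38) and SC5D (-1.12) lie under the lower line, and SCD (0.86) and TM7SF2 (0.89) just inside the upper.

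With counting error alone considered, the intervals of 15 members lay wholly above the control, those of 7 wholly below, and those of 10 included it. The share of all rows with such intervals was not counted, so the split is no trait of the members. It also depends on the scale between the libraries. Conversion to TPM moved the median of all rows by -0.15 log2, a larger shift than the lower log2 bound of ACLY (0.10) or the upper bound of FDPS (0.06). The 15 comprised 2 of 7 genes in the first segment, 6 of 11 in the second, STARD4, 2 regulators (SCAP and SREBF2) and 4 of 8 fatty acid enzymes. The 7 were INSIG1, INSIG2, SC5D, FDFT1, ACAT2, LSS and SREBF1. Of all members, 19 were within 1.25-fold of the control, and the share of all rows within that fold was not counted. Without replicate cultures it cannot be told which differences of this size exceed the variation between cultures. By level, FDPS, ACLY, EBP, SCD and ACAT2 were the highest in the control, and INSIG1 moved from rank 14 of 32 to rank 26 and INSIG2 from rank 10 to rank 20.

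Genes around the pathway were taken from 8 further lists, which held 95 measured genes. Their counts past 2-fold stand beside 2.14% lower and 0.974% higher of the protein-coding rows with at least 30 reads. No gene of the SREBP processing and INSIG turnover list was past 2-fold (0 of 16 measured, median log2 ratio 0.09). RNF139 and RNF145, ubiquitin ligases known for acting on INSIG or its partners, were at 3.54 and 3.94 RPKM and at 20.7 and 22.4 RPKM. The site proteases MBTPS1 and MBTPS2, which cleave SREBP, were at 10.9 and 9.84 RPKM and at 2.29 and 2.11 RPKM. The most displaced were PAQR3, which holds SCAP and SREBP at the Golgi, at 6.09 and 9.26 RPKM (1.52-fold lower, 1.41 to 1.64, in a row that shares exon bases with another), and C12orf49, an SREBP activator, at 6.99 and 4.83 RPKM (1.45-fold higher, 1.31 to 1.60). All 16 measured genes of this machinery lay within 2-fold, as did most protein-coding rows, so this is no trait of the list.

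The isoprenoid branch, which uses farnesyl diphosphate for prenyl groups, dolichol and ubiquinone, had a median of 0.23, with none past 2-fold. In it 11 of 12 genes were above 0, beside 8135 of 14878 rows in all. That count depends on the scale between the libraries. FNTA (0.02), PDSS1 (0.11) and COQ2 (0.11) lay nearer 0 than the shift of -0.15 log2 in the median of all rows with TPM. RCE1, a protease of prenylated proteins, was at 3.71 and 2.42 RPKM, 1.53-fold higher (1.21 to 1.94). Of the LXR and efflux list, 4 of 5 genes were measured and none was past 2-fold with 0.1 RPKM added. ABCA1, the sterol exporter, was at 1.15 and 0.563 RPKM (2.04-fold higher as a plain ratio, 1.61 to 2.60), and NR1H2, which encodes an LXR receptor, at 9.81 and 6.86 RPKM.

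Sterol trafficking and esterification had a median of -0.01, and 1 of 15 measured genes was past 2-fold, lower. That was STARD3NL, a tether between late endosomes and the endoplasmic reticulum, at 3.98 RPKM (268 reads) after knockdown against 16.1 RPKM (1209 reads). LIPA, the lysosomal lipase that frees cholesterol from its esters, was at 8.07 and 13.8 RPKM, 1.71-fold lower (1.55 to 1.89). SOAT1, which esterifies cholesterol, was at 22.9 and 23.3 RPKM. TMEM97, a sterol-regulated membrane protein, was at 11.6 and 9.19 RPKM.

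**Figure D4:**
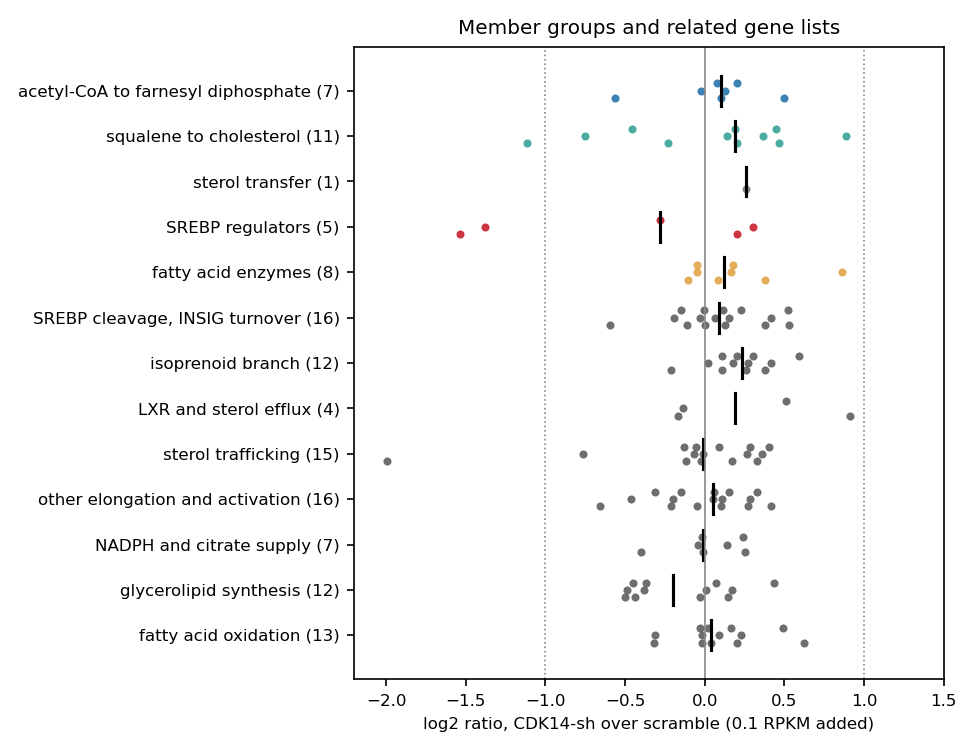
Log2 ratio (0.1 RPKM added) of each measured gene in the 5 member groups (coloured) and 8 related lists (grey), with the number of measured genes in brackets; black bars are medians and dotted lines mark 2-fold. The genes beyond the lower line are INSIG1, INSIG2, SC5D and STARD3NL, and no gene lies beyond the upper line.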

How the data were processed

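The authors deposited a table of RPKM values for 2 libraries of MDA-MB-231 cells, with exon positions and summed exon length per row, per the file headers. Libraries came from a stranded mRNA kit, per the labels' protocols. In the submitters' processing notes the tools listed are Subread 1.5.1, featureCounts and Bowtie 0.12.2, and the builds are mm8 and GRCh38, with no role given. How strand, overlaps and multi-mapped reads were handled is not given in the sources used here. Row spans equalled those of GENCODE v29 (GRCh38) for 30 of the 32 members, so coordinates are on GRCh38. The other deposited column used is the summed exon length.

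In each library, RPKM times length gave whole multiples of 1 step (100% of values above 0, to within 0.1 read), and these recovered reads were used for the intervals. Copies made by PCR are not separate molecules. Ratios had 0.1 RPKM added to both levels, which shrinks the ratios of weakly expressed genes. Rows entered from 1 RPKM in either library, and the threshold was 2-fold. Exons of 14 members share bases with another row, over 10% in 5. Genes were named by rule: all members, and the 2 most displaced measured genes of each further list, of which 2 are not reported here. Others named from those lists (RNF139, RNF145, MBTPS1, MBTPS2, SOAT1, TMEM97, LPIN2, LPIN3 and CPT1A) were chosen after their values were seen, for their roles. The members and lists were chosen with earlier results of these data known. On reads simulated for this comparison over 29452 rows, 46 of 50 genes at 2.5-fold higher and 49 of 50 at 2.5-fold lower passed 2-fold, 0 of 50 did at 1.5-fold in either direction, and intervals held the simulated fold for 47 or 48 of 50 in each set. The simulation held counting noise only. Scripts ran in Python 3.11.15 with pandas 2.3.3, numpy 2.4.6, matplotlib 3.10.9 and scipy 1.17.1.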

Additional observations from a re-analysis of the deposited data

How the results depend on the processing

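No paired analysis was possible because there was only 1 library on each side. INSIG1 and INSIG2 stayed past 2-fold in all 8 settings other than the threshold, and SC5D in 6 of the 7 that gave it a value: with a pseudocount of 1 RPKM its log2 ratio was -0.86, and it fell under the filter of 5 RPKM. The gap of INSIG1 to the enzymes and STARD4 ranged from -1.72 to -1.46. At 1.5-fold 2 members were higher. The median of the regulators was -1.46 with at least 5 RPKM and -1.38 over rows overlapping no other, since only some regulators then enter. In TPM the median of the second sterol segment was 0.037 and the value of STARD4 0.11. Of 238 values of members and CDK14 under these settings, 221 remained inside the reported counting interval, 17 left it and 0 of those past 2-fold changed sign. Dropping the level filter, raising it to 5 RPKM or keeping only rows overlapping no other changes which rows enter and not the ratio of any gene. Values under those settings could therefore not move, those of INSIG1, INSIG2 and SC5D included, and they are no evidence of stability. Among the members within 2-fold, 6 values had the opposite sign to the one reported: ACSS2, HMGCS1, MVD, MVK and SQLE in TPM, and FDPS with mitochondrial rows left out of the totals. With a pseudocount of 1 RPKM the log2 ratio of CDK14 was -1.17. Over rows overlapping no other, 18 members entered.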

Other observations

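Lipid genes further from the SREBP pathway were given by list. Glycerolipid synthesis had a median log2 ratio of -0.20, with 7 of 12 measured genes below 0 and none past 2-fold. Over all rows past the level filter, 6743 of 14878 were below 0. LPIN1, a phosphatidate phosphatase, was at 2.18 RPKM in CDK14-sh and 3.13 RPKM in the control, 1.44-fold lower (1.27 to 1.63). GPAM, the acyltransferase of the first step, was at 1.35 and 1.94 RPKM, 1.43-fold lower (1.20 to 1.72). LPIN2 and LPIN3 were also lower, at 3.76 and 5.18 RPKM and at 2.06 and 2.84 RPKM.

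Fatty acid oxidation had a median of 0.04 over 13 measured genes, equal to that of all rows to 2 decimals. ACADM, a dehydrogenase of medium-chain fatty acids, was at 40.7 and 28.9 RPKM, 1.41-fold higher (1.33 to 1.49), and SLC25A20, the carnitine carrier, at 4.56 and 2.93 RPKM, 1.56-fold higher (1.20 to 2.03). CPT1A, which commits fatty acids to oxidation, was at 4.31 and 5.38 RPKM. The genes that supply NADPH and citrate had a median of -0.01 over 7, with CS, citrate synthase, at 10.7 and 9.01 RPKM.

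Other elongases, desaturases and acyl-CoA synthetases had a median of 0.05 over 16 measured genes. FADS3, which lies beside FADS1 and FADS2, was at 2.17 and 3.48 RPKM, 1.61-fold lower (1.35 to 1.91), and ELOVL7 at 1.51 and 2.12 RPKM, 1.40-fold lower (1.09 to 1.81). In these 4 lists no measured gene was past 2-fold, beside 2.14% lower and 0.974% higher of the protein-coding rows with at least 30 reads.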
